A study of Mus musculus with 6 samples.

Results

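This account follows 10 genes that encode regulators of messenger RNA decay in mouse embryonic stem cells whose translation was blocked with cycloheximide. The genes are the endoribonuclease gene Zc3h12a, the AU-rich element binders Zfp36, Zfp36l1 and Zfp36l2, the deadenylation adaptors Btg1, Btg2, Tob1 and Tob2, and the AU-rich element binders Elavl1 and Khsrp. All 10 were found by symbol among the 17485 genes in the count files, and all 10 passed the filter on low counts, which left 12755 genes to test. The set was chosen by function with earlier results of these libraries known: Zc3h12a was selected on its low values against control at both times, so its values are given as a description with no test. The p-values of the other 9 genes were adjusted over all 12755 tested genes and carry the same limit, that the set was assembled after results had been seen.

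The cells were E14, a mouse embryonic stem cell line of 129/Ola background, cultured in serum medium with leukaemia inhibitory factor. At 24 h after seeding they received 250 µg/mL cycloheximide, an inhibitor of translation elongation, in 0.007% ethanol for 3 h or 6 h, or ethanol alone, whose strength the labels do not state, for 9 h. No genotype or allele separates the groups, and ethanol was common to all of them. Each group had 2 libraries of polyadenylated RNA, and nothing in the labels says that these came from separate cultures, so the p-values measure the spread between libraries, which may be technical. Control cells were exposed to vehicle for longer than treated cells were exposed to drug, and hours of exposure cannot be told apart from the drug.

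Library totals ranged from 9385447 to 27351079 counts, with both 6 h libraries deepest. A floor of 3 counts per library corresponded to 0.099 to 0.367 CPM, the count relative to the scaled library total, and covers counting error only. Mitochondrial genes took 24.7% and 24.9% of the counts in control, 19.6% and 18.9% after 3 h and 17.4% and 16.6% after 6 h. Pluripotency markers (10 of 10 measured) summed to 6880 to 7040 CPM in control, 7970 to 8230 at 3 h and 5560 to 5750 at 6 h, on the scale of trimmed mean of M values (TMM). Sox2 took a large part of this sum, with means of 2442 CPM in control, 3904 at 3 h and 2358 at 6 h. The median log2 fold change of the 10 markers against control was -0.06 at 3 h and -0.24 at 6 h, so they did not rise together at 3 h. Fibroblast and feeder markers (6 of 7 measured) summed to 8.89 to 10.3 CPM in control, 4.46 to 7.97 at 3 h and 3.64 to 6.6 at 6 h, with Col1a2 at 0 in all libraries but 1. Primitive endoderm markers (6 of 6 measured) summed to 5.85 to 7.82 CPM in control, 15.4 to 19.1 at 3 h and 12.7 to 15 at 6 h. Gata4 took a large part of this sum, with means of 2.07 CPM in control, 6.43 at 3 h and 4.77 at 6 h. The median log2 fold change of the 6 markers was 1.55 at 3 h and 1.14 at 6 h. Dab2 alone was negative at 3 h (-1.02), and 0 of the 6 were called in any comparison. The part of other cell types and of the mitochondrial share in the results was not tested. In bulk libraries fewer cells of a type and less RNA per cell cannot be told apart.

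Regulators of this kind bind short sequences or folds in the 3′ untranslated region (UTR) of a messenger RNA and bring in enzymes that shorten its poly(A) tail, remove its cap or cut it. ZFP36 proteins, of which tristetraprolin (Zfp36) is the founder, read AU-rich elements and recruit the CCR4-NOT deadenylase. Regnase-1, the product of Zc3h12a, cuts stem-loops in the 3′ UTRs of messages under translation, and BTG and TOB proteins link CCR4-NOT to the messages on which they act. Several of these messages carry AU-rich elements themselves and are short-lived, serum-responsive transcripts in many cell types.

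The 3 ZFP36 family messages each hold 1 copy of the nonamer TTATTTATT, the core of a strong AU-rich element, in the 3′ UTR of their principal GENCODE M21 transcript. The copies are shown because these 3 genes were the members that passed the test between 6 h and 3 h. A copy from Elavl1 is set beside them for comparison. Each line gives the DNA letters of the transcript strand, 5′ to 3′, with the nonamer in capitals.

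Zfp36: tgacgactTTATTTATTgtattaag

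Zfp36l1: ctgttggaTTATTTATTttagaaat

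Zfp36l2: tatttaacTTATTTATTatcttgtg

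Elavl1: aaaattatTTATTTATTtatttatt

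The copies begin at bases 589, 1404 and 821 of 3′ UTRs that are 774, 1835 and 1822 bases long in Zfp36, Zfp36l1 and Zfp36l2. Elavl1 holds 8 overlapping or adjacent copies within a 3′ UTR of 4218 bases, and the line above shows the one at base 3798. Zc3h12a, Btg1, Btg2, Tob1, Tob2 and Khsrp hold 0 copies of the nonamer. Among tested genes with a 3′ UTR within 10% of the same length, it was present in 4.83% for the length of Zfp36, 9.38% for Zfp36l1, 9.44% for Zfp36l2 and 19.2% for Elavl1. The shorter pentamer ATTTA, which the nonamer contains, occurs 3 times in Zfp36, 9 times in Zfp36l1 and 5 times in Zfp36l2, against medians of 1, 3 and 3 in UTRs of like length. As many or more were held by 17.3%, 4.94% and 27.4% of those UTRs. Members that were not called also lay above their medians, with 11 copies against 7 in Btg1, 5 against 3 in Btg2 and 17 against 7 in Elavl1. Zc3h12a and Tob1 hold 3 copies each against a median of 1, Tob2 holds 4 against 4, and Khsrp holds 1 against a median of 2. Matches were counted on the transcript strand alone, and a match describes letters, not binding.

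**Figure D1:**
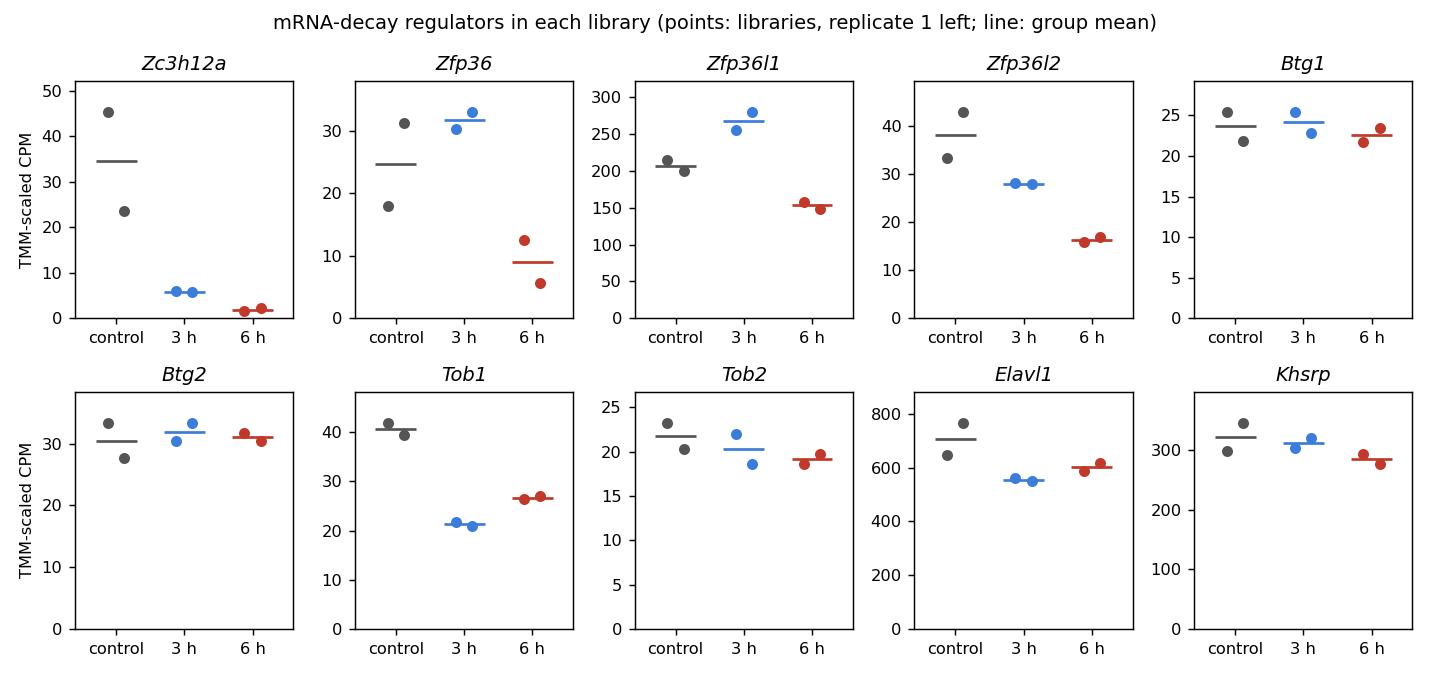
TMM-scaled CPM of the 10 genes in each of the 6 libraries, with points for libraries (replicate 1 to the left), lines for group means and axes that start at 0. Zc3h12a is lower at 3 h than in control and lower again at 6 h, without overlap, the 3 ZFP36 family genes are lowest at 6 h, Tob1 is lowest at 3 h, and Btg1 and Btg2 overlap between all groups.

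Zc3h12a lies on chromosome 4 (GRCm38, 125118423 to 125127840, minus strand, GENCODE M21). It was counted 612 and 193 times in the control libraries, 91 and 101 times after 3 h, and 46 and 56 times after 6 h. On the TMM scale this was 45.4 and 23.6 CPM in control, 5.88 and 5.84 after 3 h, and 1.52 and 2.15 after 6 h. The 3 groups did not overlap, and the control libraries differed 1.92-fold from each other. The fitted log2 fold change was -2.59 ± 0.32 (SE) at 3 h, a level of 16.6% of control, and -4.28 ± 0.35 (SE) at 6 h, a level of 5.14% of control. From 3 h to 6 h it was -1.69 ± 0.43 (SE). Of 12755 tested genes it had the 38th lowest log2 fold change at 3 h and the 9th lowest at 6 h. The size rested partly on control replicate 1: without that library the values were -2.01 at 3 h and -3.70 at 6 h.

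Zc3h12c, a paralogue of Zc3h12a, gave log2 fold changes of 0.23 ± 0.58 (SE) at 3 h and 0.46 ± 0.52 (SE) at 6 h that did not pass the test (edgeR adjusted p = 0.85 and 0.534). Zc3h12b and Zc3h12d did not pass the filter on low counts. The genes whose pattern over the 6 libraries was most like that of Zc3h12a were Zfp296, Snhg4, Dancr, Trim25 and mtNd6. Likeness was the root-mean-square difference of log2 CPM centred on control, among 5744 genes that reached 20 CPM in a group, and it was 0.25 for Zfp296, a zinc finger gene, and 0.73 to 1.03 for the other 4. Zfp296 went from 37.2 CPM in control to 7.58 at 3 h and 2.06 at 6 h. Snhg4 and Dancr are non-coding RNA genes, Trim25 encodes a ubiquitin ligase, and mtNd6 is encoded on the mitochondrial chromosome.

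The 3 ZFP36 family genes all fell between 3 h and 6 h of cycloheximide and were all below control at 6 h. At 3 h none of them passed the edgeR test after adjustment; the unadjusted p was 0.00853 for Zfp36l1, 0.029 for Zfp36l2 and 0.259 for Zfp36. Between 6 h and 3 h, 3 of the 9 tested members other than Zc3h12a were called, all 3 lower and all of this family, against 3.2% of all tested genes. At 6 h against control 4 of 9 were called, all lower, namely this family and Tob1, against 30.2% of all tested genes. At 3 h against control 1 of 9, Tob1, was called, against 4.56%. The 4 of 9 at 6 h against control stands near the share of all genes and is not read as a property of the set. The comparisons with control share the same control libraries.

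Zfp36 (chromosome 7, 28376784 to 28380253, minus strand) was at 18.0 and 31.3 CPM in control, 30.4 and 33.1 after 3 h, and 12.5 and 5.60 after 6 h. Both 6 h libraries were below every other library, and the control and 3 h libraries overlapped. The log2 fold change was -1.79 ± 0.34 (SE) from 3 h to 6 h (edgeR quasi-likelihood adjusted p = 0.0273) and -1.38 ± 0.36 (SE) at 6 h against control (edgeR adjusted p = 0.0189). At 3 h against control it was 0.41 ± 0.34 (SE; edgeR adjusted p = 0.4996), with a 95% interval of -0.36 to 1.17. The 6 h libraries differed 2.24-fold and the control libraries 1.74-fold. The call at 6 h against control was lost without control replicate 2 (-0.97, edgeR adjusted p = 0.0991), without 6 h replicate 2 (-0.94, edgeR adjusted p = 0.0783) and with library size alone as the scale (-1.03, edgeR adjusted p = 0.0513).

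Zfp36l1 (chromosome 12, 80107754 to 80113013, minus strand), which is known for a role in development and quiescence, was at 215 and 199 CPM in control, 256.0 and 280.1 after 3 h, and 158 and 149 after 6 h. The 3 groups did not overlap, with 3 h highest and 6 h lowest. It fell by 0.81 on the log2 scale from 3 h to 6 h (SE 0.11; edgeR adjusted p = 0.00746) and by 0.44 at 6 h against control (SE 0.11; edgeR adjusted p = 0.0176). At 3 h its log2 fold change of 0.37 ± 0.11 (SE) missed the threshold (edgeR adjusted p = 0.0882). It passed there with DESeq2 (0.35, adjusted p = 0.0398) and with library size alone (0.60, edgeR adjusted p = 0.0135). With library size alone the fall at 6 h against control was not called and shrank to -0.08 (edgeR adjusted p = 0.609), while that from 3 h to 6 h was. Without control replicate 1, 6 h replicate 1 or 6 h replicate 2 the former call was also lost (edgeR adjusted p = 0.0713, 0.0553 and 0.107).

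Zfp36l2 (chromosome 17, 84183931 to 84187947, minus strand), a regulator known from oocyte and blood cell development, was at 33.3 and 42.9 CPM in control, 28.0 and 27.9 after 3 h, and 15.8 and 16.8 after 6 h. The 3 groups did not overlap and decreased in that order. It fell by 1.21 on the log2 scale at 6 h against control (SE 0.17; edgeR adjusted p = 0.00141), to 43.2% of the control level, and this call was kept under all 21 alternatives tried, leaving out each library among them. From 3 h to 6 h it had a log2 fold change of -0.78 ± 0.17 (SE; edgeR adjusted p = 0.0411), and at 3 h against control one of -0.43 ± 0.17 (SE; edgeR adjusted p = 0.160). The latter did not pass.

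**Figure D2:**
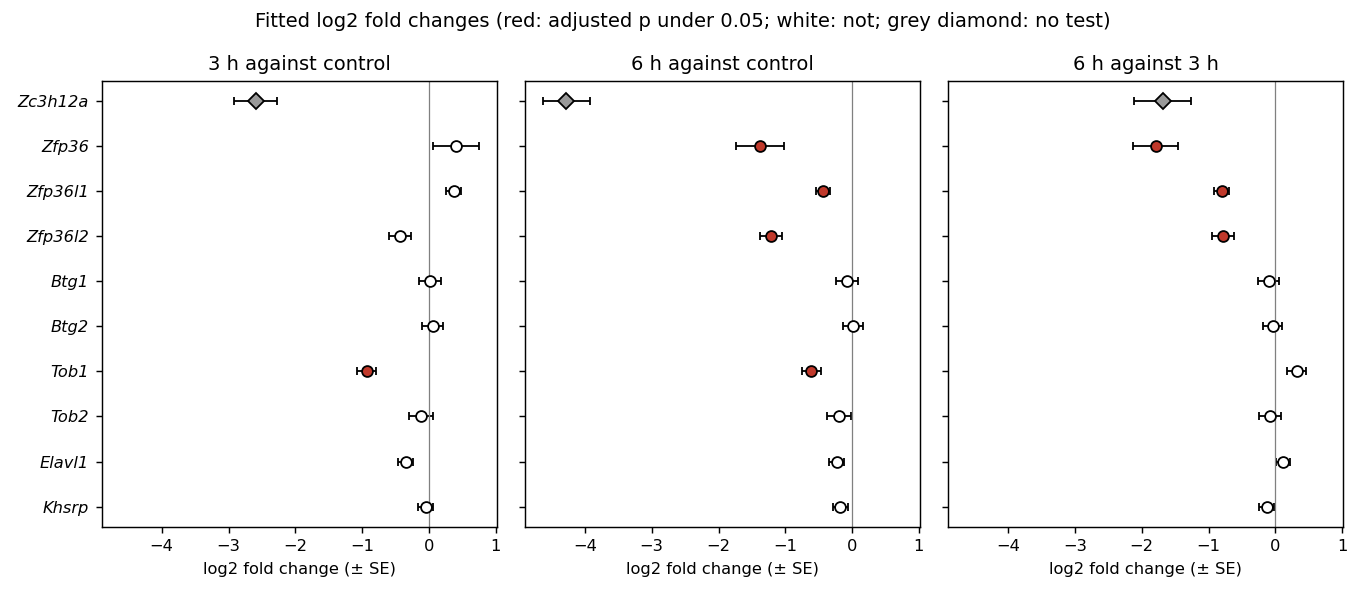
Fitted log2 fold change of each gene (horizontal axis, with its standard error) in the 3 comparisons; red circles passed an adjusted p of 0.05, white circles did not, and grey diamonds mark Zc3h12a, which was not tested. The 3 ZFP36 family genes are red and below 0 in both comparisons of 6 h, and Tob1 is red in both comparisons with control.

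Leaving out a library ended most of the calls between 6 h and 3 h. Without 3 h replicate 1, 3 h replicate 2 or 6 h replicate 2, none of the 3 family genes passed: the edgeR adjusted p was 0.132, 0.183 and 0.139 for Zfp36, 0.0648, 0.106 and 0.100 for Zfp36l1, and 0.189, 0.222 and 0.190 for Zfp36l2. Without 6 h replicate 1 Zfp36 passed, with Zfp36l1 at 0.0555 and Zfp36l2 at 0.182. With edgeR's legacy quasi-likelihood method Zfp36 and Zfp36l2 missed the threshold (adjusted p = 0.0523 and 0.0571), as Zfp36l2 did with library size alone and after thinning to the smallest total (0.0661 and 0.0681). Their log2 fold changes stayed below 0 under all 21 alternatives, from -2.50 to -1.34 for Zfp36, from -0.87 to -0.68 for Zfp36l1 and from -0.82 to -0.65 for Zfp36l2.

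Ratios between paralogues within a library do not depend on how libraries are scaled. The ratio of Zfp36l2 to Zfp36l1 counts was 0.155 and 0.215 in control, 0.110 and 0.0994 after 3 h, and 0.0998 and 0.113 after 6 h. Both treated groups were below control and overlapped with each other. The ratio of Zfp36 to Zfp36l1 was 0.0837 and 0.157 in control, 0.119 and 0.118 after 3 h, and 0.0792 and 0.0377 after 6 h, lowest in both 6 h libraries. With 2 libraries a group no test was made of these ratios.

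The genes most like Zfp36 over the 6 libraries were Scrib, a cell polarity gene, Chac1, a glutathione-degrading enzyme of the stress response, and Myc, with root-mean-square differences of 0.34, 0.35 and 0.35. Myc went from 108 CPM in control to 102 at 3 h and 40.8 at 6 h. Chac1 went from 32.0 to 38.5 and 12.8 CPM, and Scrib from 45.1 to 47.0 and 18.7.

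Of the BTG and TOB genes, Tob1 fell at both times and Btg1, Btg2 and Tob2 did not pass in any comparison. Tob1 (chromosome 11, 94211454 to 94215495, plus strand) encodes an antiproliferative protein that binds the CCR4-NOT deadenylase and poly(A)-binding protein. It was at 41.9 and 39.3 CPM in control, 21.7 and 20.97 after 3 h, and 26.4 and 27.0 after 6 h. The 3 groups did not overlap, and 3 h was lowest. The log2 fold change was -0.93 ± 0.15 (SE; edgeR adjusted p = 0.0109) at 3 h, a level of 52.4% of control, and -0.61 ± 0.14 (SE; edgeR adjusted p = 0.0114) at 6 h. From 3 h to 6 h the difference of 0.32 ± 0.14 (SE) did not pass (edgeR adjusted p = 0.234). The 3 h call was lost without either 3 h library (edgeR adjusted p = 0.0776 and 0.0971). The 6 h call was lost without control replicate 1, 6 h replicate 1 or 6 h replicate 2 (edgeR adjusted p = 0.0575, 0.0641 and 0.0604) and with library size alone (-0.25, edgeR adjusted p = 0.190).

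Tob2 (chromosome 15), the closest paralogue of Tob1, was at 23.3 and 20.3 CPM in control, 22.03 and 18.6 after 3 h, and 18.6 and 19.7 after 6 h. Its log2 fold changes against control were -0.11 ± 0.18 (SE; edgeR adjusted p = 0.742) at 3 h and -0.20 ± 0.17 (SE; edgeR adjusted p = 0.424) at 6 h. Both 6 h libraries lay below control, and the 3 h libraries overlapped with both other groups. The count ratio of Tob1 to Tob2 was 1.80 and 1.94 in control, 0.985 and 1.13 after 3 h, and 1.42 and 1.37 after 6 h. These ratios, which do not depend on scaling, did not overlap between groups, and 3 h was lowest. Levels of single genes did not overlap either in 53.2% of all tested genes at 3 h against control and 66.8% at 6 h. No test was made of the difference between the paralogues.

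Btg1 (chromosome 10) and Btg2 (chromosome 1), antiproliferative genes that respond early to growth and stress signals in many cells, had overlapping libraries in all groups. Btg1 was at 25.4 and 21.9 CPM in control, 25.4 and 22.9 after 3 h, and 21.7 and 23.4 after 6 h. Btg2 was at 33.3 and 27.6 CPM in control, 30.4 and 33.4 after 3 h, and 31.7 and 30.4 after 6 h. At 6 h the 95% interval of the log2 fold change was -0.45 to 0.29 for Btg1 and -0.33 to 0.37 for Btg2, and at 3 h it was -0.36 to 0.40 and -0.30 to 0.41. With 2 libraries a group, changes within those intervals are not excluded, and the intervals are not a limit of what could be called. The count ratio of Btg1 to Btg2 lay between 0.685 and 0.834 in all 6 libraries. The genes most like Btg2 were Nup155, a nuclear pore gene, Wbp2 and Rab14, a small GTPase gene, at root-mean-square differences of 0.05 to 0.06.

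Promoters are shown for Zfp36 and Btg2, because both are known as immediate-early genes and in these libraries 1 of them was called at 6 h and the other was not; the difference between them was not tested. Each runs from 250 bases before to 50 after the RefSeq start (GRCm38.p6), 5′ to 3′ on the gene's own strand. Both genes lie on the minus strand, and motif matches are in capitals. Of the promoters searched, those of Zfp36, Tob2 and Elavl1 lie wholly within the GENCODE M21 gene spans, which reach further upstream. Motif positions and absent matches there hold for the RefSeq start alone. The table of RefSeq promoters held 9 of the 10 members; Zfp36l2 was not matched.

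Zfp36, chr7:28379179-28379478: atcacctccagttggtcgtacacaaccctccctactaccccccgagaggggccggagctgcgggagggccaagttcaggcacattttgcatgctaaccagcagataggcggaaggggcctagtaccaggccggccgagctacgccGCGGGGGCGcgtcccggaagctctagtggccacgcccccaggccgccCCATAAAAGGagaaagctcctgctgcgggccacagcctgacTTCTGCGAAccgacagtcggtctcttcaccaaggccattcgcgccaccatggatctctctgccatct

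Btg2, chr1:134079106-134079405: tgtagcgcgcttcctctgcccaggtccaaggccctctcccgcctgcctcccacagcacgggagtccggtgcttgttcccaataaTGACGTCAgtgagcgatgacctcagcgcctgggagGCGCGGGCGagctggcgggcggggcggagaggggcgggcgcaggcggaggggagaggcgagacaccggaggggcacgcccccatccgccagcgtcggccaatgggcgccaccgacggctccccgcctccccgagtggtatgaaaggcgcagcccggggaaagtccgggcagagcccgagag

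In the promoter of Zfp36 the capitals are, in order, a match to the EGR motif GCGNGGGCG at position -105, to the CArG box of serum response factor at -58 and to the STAT motif TTCNNNGAA at -17, counted from the start site to the match's first base. In the promoter of Btg2 they are a cyclic AMP response element TGACGTCA at -166 and a match to the EGR motif at -131. Both strands were searched. Of 9472 tested genes with a promoter in the table, 11% held the EGR motif, 6.67% the STAT motif, 3.34% the cyclic AMP response element and 1.19% a CArG box. The AP-1 motif TGANTCA (4.63% of promoters), the E-box CACGTG (10.6%) and the TATA box TATAAA (6.77%) were also searched. Zfp36l1 held an AP-1 and a TATA box match, Btg1 and Tob1 each held a TATA box match, and Zc3h12a, Tob2, Elavl1 and Khsrp held no match to these 7 motifs in this window. No binding was measured.

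Elavl1 and Khsrp, whose proteins also bind AU-rich elements, with HuR (Elavl1) known to stabilise messages and KHSRP to promote their decay, did not pass the test in any comparison. Elavl1 (chromosome 8) was at 646 and 767 CPM in control, 561 and 548 after 3 h, and 585 and 617 after 6 h. The treated libraries were all below control. Its log2 fold change was -0.35 ± 0.11 (SE; edgeR adjusted p = 0.103) at 3 h and -0.23 ± 0.11 (SE; edgeR adjusted p = 0.145) at 6 h. The 3 h value passed with DESeq2 (-0.37, adjusted p = 0.0392), and at 6 h the direction turned with library size alone (0.13, edgeR adjusted p = 0.402). Khsrp (chromosome 17) was at 298 and 346 CPM in control, 303 and 320 after 3 h, and 293 and 276 after 6 h. Its log2 fold changes were -0.05 ± 0.11 (SE; edgeR adjusted p = 0.835) at 3 h and -0.18 ± 0.11 (SE; edgeR adjusted p = 0.264) at 6 h. From 3 h to 6 h the log2 fold change was 0.12 for Elavl1 and -0.13 for Khsrp (edgeR adjusted p = 0.588 and 0.553).

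**Figure D3:**
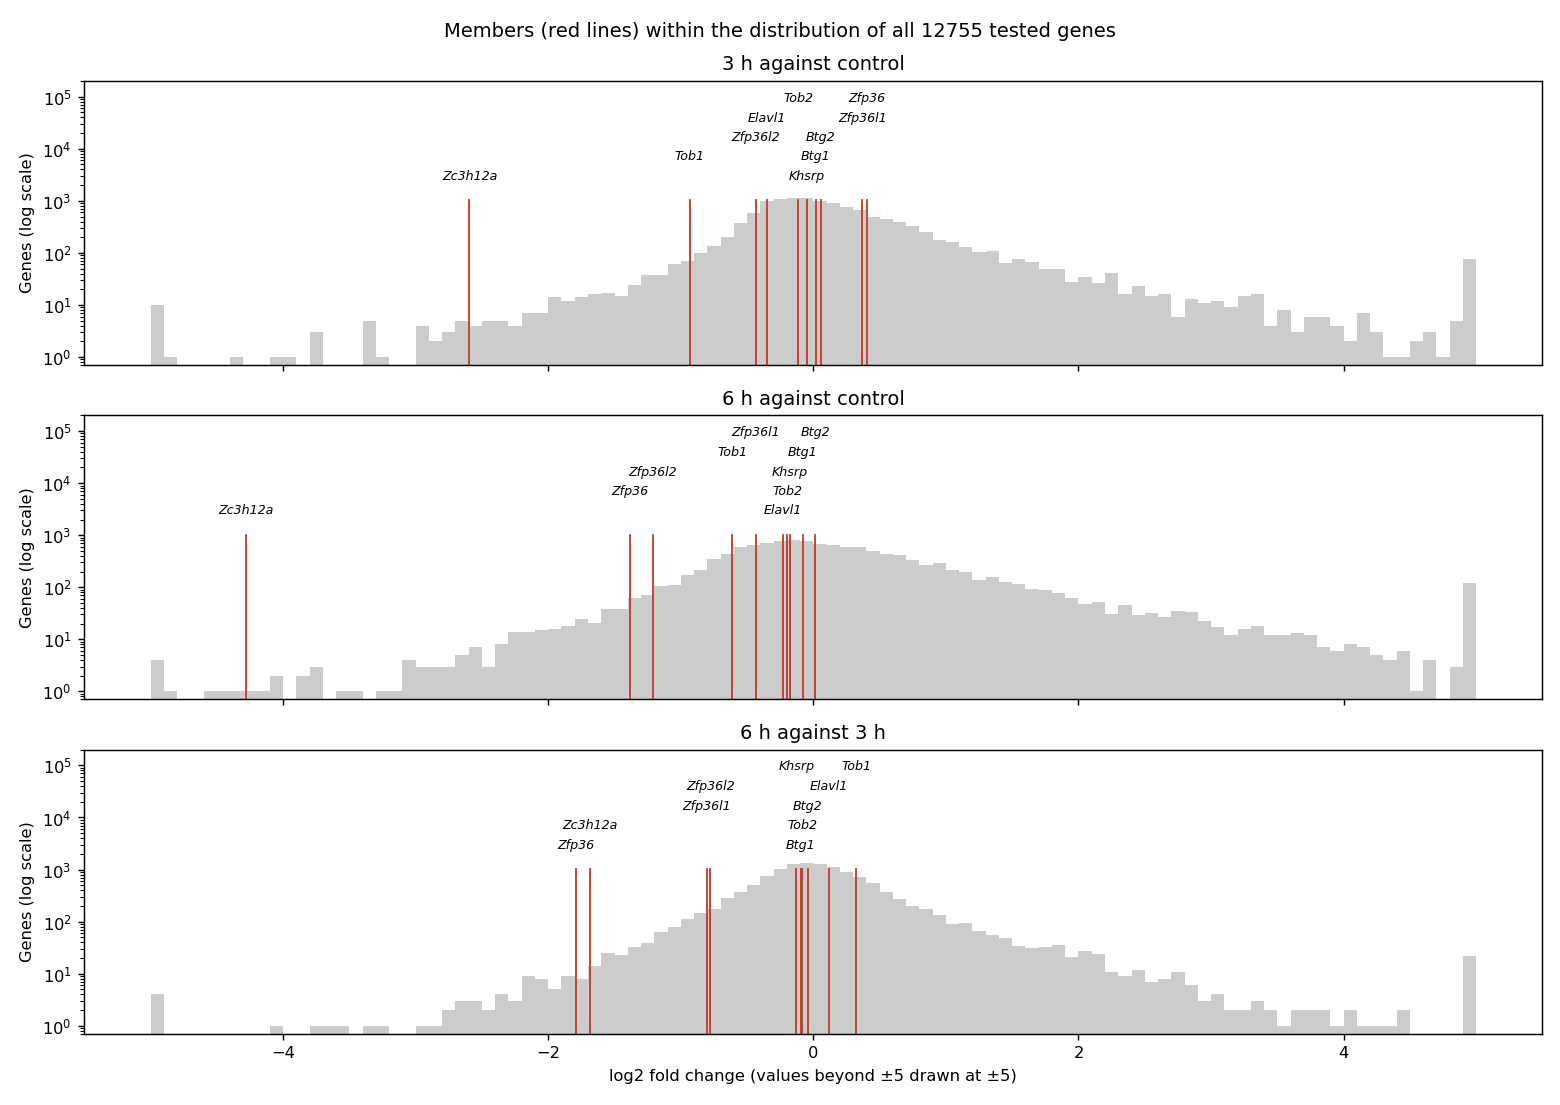
Histograms of log2 fold changes of all 12755 tested genes (log-scaled vertical axis) in the 3 comparisons, with red lines at the 10 genes. Zc3h12a lies in the lower tail at both times against control, at -2.59 and -4.28, and Btg1, Btg2, Tob2, Elavl1 and Khsrp lie near the centre.

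The median log2 fold change of the 9 members other than Zc3h12a was -0.05 at 3 h, -0.23 at 6 h and -0.10 from 3 h to 6 h, beside 0.02, 0.04 and 0.00 for all tested genes. In 4, 7 and 6 of the 9 the libraries of a group all lay beyond those of the other, beside 53.2%, 66.8% and 54.1% of all tested genes. With library size alone the median of all tested genes moved to 0.25 at 3 h, 0.40 at 6 h and 0.13 from 3 h to 6 h, and changes here are relative to the TMM scale. On that other scale 1199 of 1256 calls at 3 h and 3885 of 4435 at 6 h were higher, against 409 of 582 and 1960 of 3855. From 3 h to 6 h 308 of 454 were higher, against 163 of 408.

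Tested genes outside the set whose 3′ UTR holds TTATTTATT numbered 876. Their median log2 fold change was 0.16 at 3 h, 0.23 at 6 h and 0.02 from 3 h to 6 h, beside 0.00, 0.01 and -0.01 for the 10680 genes without it. At 6 h 20.4% of them were called higher and 11.6% lower, beside 14.3% and 15.4%. Their 3′ UTRs were longer, with a median of 2304 against 954 bases, and the part of length was not tested. The ZFP36 family genes, which hold the nonamer and fell at 6 h, lay on the other side of 0 from this group's median at 6 h.

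The general decay enzymes were given as lists for comparison. At 3 h 0 of 15 tested subunits and partners of the CCR4-NOT and PAN deadenylases were called with edgeR or DESeq2, and 1 had an unadjusted p under 0.05. At 6 h 2 were higher and 1 lower, with a list median of 0.13, beside 15.4% higher and 14.9% lower among all tested genes, so the calls were no more frequent than over all genes. The control libraries differed for some genes of the list, at 104 and 23.5 CPM for Cnot3 and 47.7 and 20.5 for Cnot6. This limits what could be called at either time. Cnot4, a ubiquitin ligase subunit, rose by a log2 fold change of 0.80 ± 0.22 (SE; edgeR adjusted p = 0.0229), and Pan3, the adaptor of the PAN deadenylase, by 0.74 ± 0.21 (SE; edgeR adjusted p = 0.0264). Tnks1bp1, a CCR4-NOT partner, had a log2 fold change of -0.84 ± 0.16 (SE; edgeR adjusted p = 0.00519). The deadenylases that BTG and TOB proteins bind, Cnot7 and Cnot8, gave log2 fold changes of -0.07 and -0.36 at 6 h that did not pass (edgeR adjusted p = 0.685 and 0.0712); they were named for that role after their values were seen.

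Of 18 decapping and 5′-to-3′ decay genes, 2 were higher and 2 lower at 6 h, beside the 30.2% of all tested genes called there, and 1 was lower at 3 h, beside 4.56%; neither count is read as a property of the list. Dcp1a, a decapping activator, and Dcp2, the decapping enzyme, moved in opposite directions, with log2 fold changes of 0.94 ± 0.17 (SE; edgeR adjusted p = 0.00364) and -0.93 ± 0.14 (SE; edgeR adjusted p = 0.00185) at 6 h. Dcp2 was at 82.7 ± 9.97 CPM in control and 43.6 ± 2.20 at 6 h (SD, n = 2). Lsm6, a subunit of the ring that binds shortened tails, fell by 0.63 at 3 h and by 0.88 at 6 h on the log2 scale (edgeR adjusted p = 0.0221 and 0.00125). The 3 h call was lost without 3 h replicate 1 or 3 h replicate 2, and with library size alone the calls of this list at 3 h were 1 higher and 0 lower. Xrn1, the 5′-to-3′ exonuclease, rose at 6 h by 1.00 on the log2 scale (edgeR adjusted p = 0.0498), from 9.78 and 3.18 CPM in the control libraries. This value rested on the control libraries, at 2.15 without control replicate 1 and 0.53 without control replicate 2. The call was also lost with the legacy method, DESeq2 size factors, the replicate block and the 4 libraries compared alone (edgeR adjusted p = 0.0716, 0.0505, 0.0508 and 0.0777). Of 17 exosome and SKI genes 3 were lower and 0 higher at 6 h, beside 14.9% lower and 15.4% higher over all tested genes. The 3 were Exosc4, Wdr61 and Exosc7, with log2 fold changes of -1.02, -0.67 and -0.49, and 0 were called at 3 h with edgeR (1 with DESeq2, and 2 at an unadjusted p under 0.05). With library size alone Wdr61 and Exosc7 lost their calls at 6 h (-0.32 and -0.14, edgeR adjusted p = 0.0784 and 0.460).

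**Figure D4:**
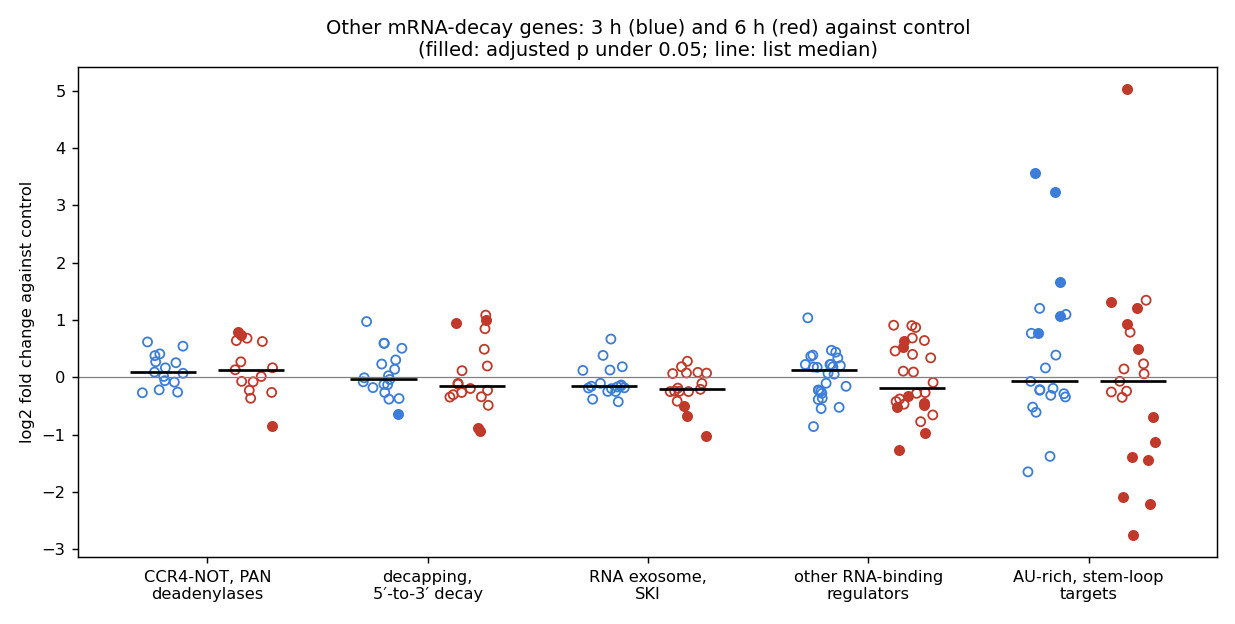
Log2 fold change against control of the other decay genes and of known target messages, at 3 h (blue) and 6 h (red); filled points passed an adjusted p of 0.05, horizontal position within a list is random, and black lines are list medians. The enzyme lists lie mostly between -1 and 1, and the target messages spread from -2.75 for Ier3 to 5.03 for Ptgs2 at 6 h.

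Of 26 tested other RNA-binding regulators, 2 were higher and 6 lower at 6 h, a share like the 30.2% of all tested genes, and 0 were called at 3 h with edgeR (2 with DESeq2, and 4 at an unadjusted p under 0.05). The Roquin genes, whose proteins act on stem-loops as Regnase-1 does, moved in opposite directions at 6 h. Rc3h1 had a log2 fold change of -1.27 ± 0.30 (SE; edgeR adjusted p = 0.0124) and Rc3h2 of 0.53 ± 0.16 (SE; edgeR adjusted p = 0.0359). Elavl2, a paralogue of Elavl1, rose by 0.64 ± 0.18 (SE; edgeR adjusted p = 0.0233). Samd4b, a Smaug protein gene, and Pabpc1, the main cytoplasmic poly(A)-binding protein gene, had log2 fold changes of -0.97 and -0.52 (edgeR adjusted p = 0.0018 and 0.0058). Pabpc1 lost its call with library size alone (-0.17, edgeR adjusted p = 0.237).

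Messages known from other cells as targets of ZFP36 proteins or Regnase-1 moved both ways: of 21 tested, 5 were higher and 0 lower at 3 h, and 5 were higher and 7 lower at 6 h. Over all tested genes 3.21% were higher and 1.36% lower at 3 h, and 15.4% and 14.9% at 6 h. The list medians were -0.07 at both times. From 3 h to 6 h 1 was higher and 7 lower, with a median of -0.46. Over all tested genes 1.28% were higher and 1.92% lower in that comparison, with a median of 0.004. The 5 higher at 3 h were Ptgs2, Ier2, Fos, Dusp1 and Sgk1, of which all but Ptgs2 and Fos are named after their values were seen. Fos, an AP-1 subunit gene, was at 1.63 ± 0.63 CPM in control, 14.5 ± 0.28 at 3 h and 3.80 ± 0.88 at 6 h (SD, n = 2). Ptgs2, the inducible cyclooxygenase gene, was counted 2 and 2 times in control, 40 and 34 times after 3 h and 171 and 180 times after 6 h. Both control counts lay below the floor of 3 counts, and Ptgs2 passed the filter only through the treated libraries. Its calls against control, counted above, are therefore a description and carry no weight as a test. The ratio of its summed scaled counts, 6 h to control, was 33.7, with an exact 95% counting interval of 13.1 to 125; the fitted log2 fold change of 5.03 depends on the prior count at so low a control level. Lats2, a Hippo kinase gene, rose by 1.21 (edgeR adjusted p = 0.00653). Ier3, Nfkbid and Vegfa had log2 fold changes of -2.75, -2.21 and -2.08 at 6 h (edgeR adjusted p = 0.0043, 0.00235 and 0.000333). Of the 21 named genes of these lists, 12 kept their call at 6 h without each library in turn; Cnot4, Pan3, Xrn1, Exosc7, Rc3h1, Rc3h2, Elavl2, Fos and Ier3 lost it without at least 1 library, and none turned its direction under the 21 alternatives. Of these 21, 18 kept their call with library size alone. Ptgs2 is counted in the 21, the 12 and the 18, and its calls carry no weight there either. Ier3 did not pass the strict filter, so its direction was not checked under that alternative. Without 3 h replicate 1 or replicate 2, 2 targets were called at 3 h; targets called from 3 h to 6 h numbered 1 and 2 without 3 h replicates 1 and 2, and 3 and 0 without 6 h replicates 1 and 2. Called at 6 h, the deadenylase genes numbered 5 without control replicate 1 and 1 without control replicate 2 or 6 h replicate 2, and the other regulators 4, 2 and 4 without control replicate 1, 6 h replicate 1 and 6 h replicate 2. Il6, a target of both Regnase-1 and tristetraprolin, did not pass the filter on low counts. With library size alone the calls at 6 h were 5 higher and 1 lower among deadenylase genes and 6 and 2 among decapping genes. They were 4 and 1 among exosome genes, 6 and 2 among the other regulators and 7 and 6 among target messages. On that scale most calls over all tested genes were also higher, as given above. Over all tested genes fewer were called at 6 h when any 1 library was left out. The list counts under these alternatives are therefore not read as properties of the lists.

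In the mouse annotation the gene Ccl25 overlaps Elavl1 on the opposite strand, and a gene known by an identifier alone overlaps Zfp36, Zfp36l1, Zfp36l2, Tob2 and Khsrp in the same way. The labels and headers do not say whether counting used strand, so reads of such a pair could not be told apart. No other gene overlaps Zc3h12a, Btg1, Btg2 or Tob1.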

How the data were processed

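Whole-number counts per gene were deposited by the authors, 1 file per library. RNA with poly(A) tails was isolated by TRIzol, given barcodes and pooled across samples for sequencing, per the labels' protocols. The submitters' processing notes name the genome build mm10; the aligner, counter, annotation and strandedness are not given in the sources used here. The series' design text mentions single-cell sequencing, but each file holds 1 column and was treated as a bulk library.

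Counts were scaled by TMM and tested with edgeR 4.0.16 (R 4.3.3; filterByExpr by group, estimateDisp, glmQLFit, glmQLFTest) over all 6 libraries, with a mean per group, 3 residual degrees of freedom and Benjamini-Hochberg adjustment within each comparison over 12755 genes. An adjusted p under 0.05 was a call. Standard errors were computed from the fold change and the F statistic. The code was tested on simulated counts. Alternatives used DESeq2 1.42.0, limma 3.58.1 (voom), other scalings and filters, thinning, other thresholds, a replicate block, the 4 libraries compared alone, and each library left out.

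The 10 genes, the gene lists and the tests were chosen with earlier results of these data known. Named were all 10 genes, up to 3 called genes per direction from each list at 6 h, and the 5 or 3 genes of most similar pattern. Positions and 3′ UTRs came from GENCODE M21, promoters from RefSeq. Replicate libraries differed beyond counting noise: chi-square divided by its degrees of freedom was 18.7 to 27.8.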

Additional observations from a re-analysis of the deposited data

Results flagged for a closer look

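In the direct test of 6 h against 3 h, 3 genes, all of the ZFP36 family, responded differently at the later time. The log2 fold change from 3 h to 6 h was -1.79 for Zfp36 (edgeR adjusted p = 0.0273), -0.81 for Zfp36l1 (edgeR adjusted p = 0.00746) and -0.78 for Zfp36l2 (edgeR adjusted p = 0.0411), with both 6 h libraries below both 3 h libraries for each gene. In the same comparison 245 of 12755 tested genes were called lower. The calls of the 3 genes depended on the method, and most were lost when 1 library was left out, as described above.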

How the results depend on the processing

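Counts of the 9 tested genes that were called changed under these alternatives. Counts over all tested genes, given at the end of this section, also changed under many of them. The member counts are therefore not read as a property of the set. At 3 h the count of 1 became 3 with DESeq2, 2 with library size alone, and 0 with a test against 1.5-fold or an adjusted p under 0.01; leaving out 1 library gave 0 to 1. At 6 h the count of 4 became 1 with library size alone, with the 1.5-fold test and with an adjusted p under 0.01; leaving out 1 library gave 1 to 4. Between 6 h and 3 h the count of 3 became 1 with edgeR's legacy quasi-likelihood method, 1 with the replicate block, 1 with an adjusted p under 0.01 and 0 with the 1.5-fold test; leaving out 1 library gave 0 to 3. Leaving out a library also leaves fewer degrees of freedom, and a lone library was assumed to vary like the other groups.

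Whether libraries with the same replicate number were handled together was not established. Deviations of libraries with the same number correlated at 0.234 between control and 3 h, -0.0551 between control and 6 h and 0.0102 between 3 h and 6 h. Under the replicate block Zfp36 and Zfp36l2 were at edgeR adjusted p = 0.059 and 0.0586 between 6 h and 3 h, and all genes called there fell from 408 to 246.

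Log2 fold changes that turned sign were all of genes that did not pass. With library size alone they became 0.113 (Tob2) and 0.18 (Khsrp) at 3 h, 0.277 (Btg1), 0.162 (Tob2), 0.125 (Elavl1) and 0.179 (Khsrp) at 6 h, and 0.034 (Btg1), 0.088 (Btg2) and 0.048 (Tob2) between 6 h and 3 h. With DESeq2 size factors in edgeR they became -0.004 (Btg1, 3 h) and -0.001 (Btg2, 6 h). Leaving out 1 library at a time gave, at 3 h, -0.075 to 0.136 for Btg1, -0.058 to 0.206 for Btg2, -0.24 to 0.006 for Tob2 and -0.156 to 0.062 for Khsrp. At 6 h it gave -0.17 to 0.042 for Btg1 and -0.097 to 0.167 for Btg2, and between 6 h and 3 h -0.102 to 0.028 for Btg2 and -0.202 to 0.046 for Tob2. The cause was not tested.

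All genes called at 3 h numbered 582, and 1447 with DESeq2, 1256 with library size alone, 332 with the 4 libraries compared, 130 at an adjusted p under 0.01, 87 with the 1.5-fold test and 102 to 489 without 1 library. At 6 h they numbered 3855, and 1779 at an adjusted p under 0.01, 848 with the 1.5-fold test and 1994 to 3357 without 1 library. Between 6 h and 3 h they numbered 408, and 688 with DESeq2, 209 with the legacy method, 640 with the 4 libraries compared, 76 at an adjusted p under 0.01, 38 with the 1.5-fold test and 21 to 642 without 1 library.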
